A study of Homo sapiens with 26 samples.

Results

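The total-input ribosome footprints of 3 HEK293T lines were compared with one another, without the streptavidin pulldowns for which they serve as the reference. These are 6 of the 26 samples of the series. They are the input libraries of the lines that carry the light-activated biotin ligase LOV-BirA at the endoplasmic reticulum (ER line, 2 libraries), at mitochondria (mito line, 2 libraries) or in the cytosol (cytosol line, 2 libraries). A gene was a member where its entry in the deposited tables named 1 gene and had at least 64 coding-sequence counts in each of the 6 libraries. Of 57770 entries that named 1 gene, 13201 had any coding-sequence count in these libraries and 6436 were members, of which 6434 matched a gene symbol and a position.

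HEK293T is an embryonic kidney line that carries the SV40 large T antigen. All 3 lines expressed LOV-BirA from an integrated lentivirus and a ribosomal protein with an Avi tag, the peptide that BirA biotinylates. In the ER line the ligase was fused to Sec61β, a tail-anchored protein of the translocon, and was expressed from the SFFV promoter behind mCherry and a P2A peptide. In the mito line it was fused to GFP and the transmembrane domain of OMP25, an outer-membrane protein, under the EF1α promoter, and the cytosol line carried the ligase without an anchor, also under EF1α. The study's methods describe cycloheximide, biotin and blue light before lysis, followed by micrococcal nuclease. The labels do not give these steps per library. The methods describe cells in which RPL29 was tagged at its own locus and cells with a lentiviral Avi-RPL10A, and the labels do not say which of these each library came from. The lines thus differed in anchor, promoter and reporter at the same time, no line without the ligase was among these libraries, and the ligase lines were polyclonal populations sorted by fluorescence, made in tagged cells of which the RPL29 knock-in lines were single-cell clones. The labels give replicate numbers but not whether replicates were separate cultures. The study calls the replicates of its outer-membrane enrichment biological, without saying how each library here was made. The p-values thus measure only the spread between these libraries, which may be technical.

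A total-input library samples the footprints of all ribosomes, so a gene's share of the footprints depends on both its mRNA and how often that mRNA is translated. Among the programs that change this share most readily in cultured cells is the integrated stress response. In it, phosphorylation of eIF2 lowers general initiation while upstream reading frames let ribosomes reach the coding sequence of ATF4, a transcription factor that raises amino acid transporters, amino acid synthesis enzymes and aminoacyl-tRNA synthetases. Ribosomal proteins and several translation factors are encoded by TOP mRNAs, which begin with a tract of pyrimidines at the 5′ end and depend on mTORC1 for translation. Cytosolic chaperones of the Hsp70 and Hsp90 families are driven by HSF1, and the enzymes of cholesterol and fatty acid synthesis by the SREBP factors.

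The following sequences belong to genes whose levels are described below. They were taken from RefSeq promoter windows (GRCh38.p14), which run from 250 bases before to 50 bases after the annotated start. The first group comes from members of the ATF4 list that hold TGATGNAA, the core of the amino acid response element, on either strand. The strand shown is the one on which it reads forward, and capitals mark it. Of the 37 list members, 28 had such a window and 12 of these, 42.9%, held the 8 letters, against 4.46% of all 27305 genes with a window. The list was written from known genes of the ATF4 response, so this share is no independent evidence.
ATF3 (chr1:212565205-212565234, + strand): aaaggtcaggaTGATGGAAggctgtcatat
SLC1A4 (chr2:64989381-64989410, - strand): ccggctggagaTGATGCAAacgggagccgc
AARS1 (chr16:70289675-70289704, + strand): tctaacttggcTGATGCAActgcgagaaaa
GARS1 (chr7:30594834-30594863, - strand): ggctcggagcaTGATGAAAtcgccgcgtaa
CEBPG (chr19:33374060-33374089, + strand): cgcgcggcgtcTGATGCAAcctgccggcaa

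The second group shows the 10 bases before and the 20 bases from the annotated start of genes from the ribosomal protein list and the translation factor list, which also holds other TOP mRNAs such as TPT1, on the strand of the gene. Capitals mark TTTTC, searched on that strand. This spelling of a pyrimidine tract was chosen after 4 other spellings had been searched, because the genes shown hold it, so its share is no independent evidence. It was present in the start window of 14 of 53 ribosomal protein genes (26.4%) and 7 of 29 genes of the translation factor list (24.1%), against 4.99% of all genes. The other spellings, which overlap with one another, were CTTTC (54.7% and 13.8%, against 5.29% of all genes), CTTTTC (20.8% and 17.2%, against 1.56%), CTTTCC (28.3% and 6.90%, against 1.91%) and TTTCC (49.1% and 27.6%, against 6.28%). A match is a description of the letters and not a mapped site.
EEF1A1 (chr6:73521013-73521042, - strand): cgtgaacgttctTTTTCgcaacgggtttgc
RPS6 (chr9:19380217-19380246, - strand): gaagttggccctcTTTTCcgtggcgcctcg
RPSA (chr3:39406710-39406739, + strand): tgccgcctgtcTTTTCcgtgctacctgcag
TPT1 (chr13:45341164-45341193, - strand): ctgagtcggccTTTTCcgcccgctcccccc
RPL10A (chr6:35468391-35468420, + strand): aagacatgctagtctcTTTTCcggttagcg

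The libraries held between 4485509 (cytosol replicate 2) and 15820989 (cytosol replicate 1) coding-sequence counts. The file headers show 4 sequencing runs, called A to D here: ER replicate 1 and cytosol replicate 1 were in run A, ER replicate 2 and mito replicate 2 in run B, mito replicate 1 in run C and cytosol replicate 2 in run D. No line had its replicates in the same run. A fit with both line and run would leave no residual degrees of freedom, so line and run cannot be told apart in any test below. Cytosol replicate 2 stood apart from the other 5 libraries, and 12.6% of its region counts fell in 5′ untranslated regions against 7.23 to 9.33% elsewhere. Its TMM scaling factor was 1.06 against 0.973 to 1.01, and scaling by library totals would raise the median gene in cytosol replicate 2 against replicate 1 by 0.12 on the log2 scale. The file headers name the alignments of cytosol replicate 2 and of its pulldown in another way than those of the other libraries, which was not looked into further. The counts of genes called, the fitted differences between the mito and cytosol lines and 2 of the list counts are given with and without this library.

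Of the 11 markers listed for the HEK293 line, 7 were members. VIM, an intermediate filament protein of mesenchymal and cultured cells, was the most abundant at 1521 to 3628 CPM. CPM is the count of a gene divided by the total coding count of the library and scaled. The listed markers KRT8, PAX2, LHX1 and SOX11 were not members. PAX2 had 4.01 to 8.05 CPM, LHX1 0.446 to 1.1 CPM and SOX11 at most 0.104 CPM. KRT8 had 2.34 to 4.85 CPM in 5 libraries and 25.2 CPM in cytosol replicate 2. No marker of blood, endothelial or hepatocyte cells was a member. The summed level of the 9 endothelial markers was 0.774 to 2.68 CPM, with PECAM1, CDH5 and VWF at 0 in every library. The 14 blood markers found in the tables summed to 16.1 to 25.7 CPM, most of it CORO1A, with HBA1, HBA2 and HBB at 0. The 10 fibroblast markers summed to 54.7 to 71.0 CPM in 5 libraries and to 209 CPM in cytosol replicate 2, where COL1A1 reached 165 CPM, COL3A1 23.9 CPM and LUM 8.25 CPM, while COL1A2, PDGFRB, THY1 and FAP were at 0 in all 6.

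The first comparison asked which genes differed between lines beyond the spread of the replicates. No gene was called in any contrast at an adjusted p below 0.05 (edgeR quasi-likelihood test, Benjamini-Hochberg adjustment over 6436 genes), so that 0.0% were called in each direction of each contrast, and DESeq2 also called 0. The smallest adjusted p was 0.811 for the ER line against the cytosol line and 0.824 for the mito line against the cytosol line. It was 0.635 for the cytosol line against the mean of the other lines, and the F test for any difference among the lines gave 0.993. At an unadjusted p below 0.05 there were 275 genes (4.27%) between the ER and cytosol lines, 294 (4.57%) between the mito and cytosol lines and 11 (0.171%) between the mito and ER lines. For a single line against the mean of the others there were 27 genes (0.42%) for ER, 55 (0.855%) for mito and 475 (7.38%) for cytosol.

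These counts depended on the cytosol libraries. Without cytosol replicate 2 there were again 0 calls, with a smallest adjusted p of 0.056 over the contrasts. Without cytosol replicate 1, so that the cytosol line was represented by replicate 2 alone and that library was assumed to vary like the others, the F test called 1205 genes, and the ER line differed from the cytosol line at 677 genes higher and 730 lower. A fit of the 4 ER and mito libraries alone called 0 genes between these lines, with 142 (2.21%) at an unadjusted p below 0.05.

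Libraries were closer to those of the same run than to those of the same line. The SD over genes of the difference in log2 CPM was 0.13 for ER replicate 1 and cytosol replicate 1, which shared run A, and 0.20 for ER replicate 2 and mito replicate 2, which shared run B. Between replicates of a line, which never shared a run, it was 0.31 for ER, 0.36 for mito and 0.65 for cytosol. Pairs that shared neither line nor run and did not include cytosol replicate 2 lay at 0.25 to 0.41, so the ER and mito replicates were within the range of unrelated pairs. Counting error alone would give 0.08 for the pair of run A and 0.13 for the pair of run B. In run A no gene differed by 2-fold between the ER and cytosol lines, and in run B 1 gene (0.0155%) did between the ER and mito lines, the mitochondrially encoded MT-ND1. All other differences between lines past 2-fold were between libraries of different runs, and the part of the run in them was not tested.

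**Figure D1:**
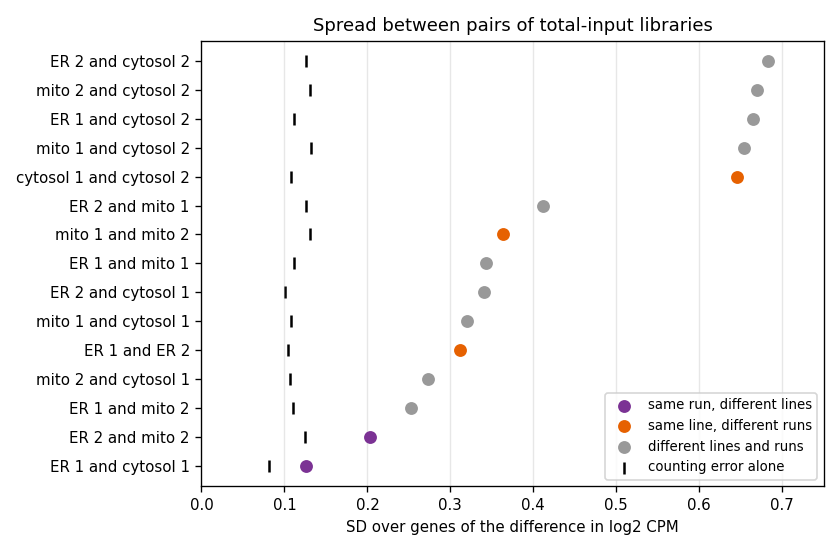
SD over 6436 genes of the difference in log2 CPM (x axis) for each of the 15 pairs of total-input libraries (y axis), with the counting error as a tick. The pairs that share a run lie at 0.13 and 0.20, below all 3 pairs that share a line (0.31 to 0.65), and all 5 pairs with cytosol replicate 2 lie at 0.65 or above.

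The second comparison asked which differences held in both replicates of a line, that is, where the libraries of the groups did not overlap. The ER libraries lay above both cytosol libraries at 1161 genes (18.0%) and below at 1153 (17.9%). The mito libraries lay above the cytosol libraries at 936 (14.5%) and below at 987 (15.3%), and above the ER libraries at 735 (11.4%) and below at 851 (13.2%). The stricter measure asks that both libraries of a line lie above or below all 4 others. In the ER line 252 genes were higher (3.92%) and 241 lower (3.74%) by this measure. In the mito line 267 were higher (4.15%) and 343 lower (5.33%), and in the cytosol line 484 were higher (7.52%) and 484 lower (7.52%). Groups this small also fail to overlap at many genes when lines do not differ, so these counts by themselves show no difference between lines. Most of the gaps by the stricter measure were narrow. A gap of at least 0.25 on the log2 scale between the line and its nearest other library was seen for 2 genes higher and 4 lower in the ER line, 8 higher and 13 lower in the mito line, and 10 higher and 2 lower in the cytosol line. A gap of 0.5 was reached by 1 gene, NIPA2 in the mito line. The genes with wide gaps are named here after their values were seen, unless a list is given.

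On the higher side of the ER line, CUL2, the scaffold of a ubiquitin ligase, had 5.58 and 5.80 log2 CPM against 4.69 to 5.32 in the 4 others. NRDE2, a nuclear RNA-processing factor, had 4.88 and 4.84 against 3.79 to 4.55. On the lower side, CTSC, a lysosomal protease, had 5.14 and 4.94 against 5.39 to 5.74.

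The ER line is the one whose replicates each shared a run with another line, which gives 2 within-run differences that have no library in common: ER minus cytosol in run A and ER minus mito in run B. Across the 6436 genes the Pearson and Spearman coefficients were both 0.16, a description over genes that share library depth and base composition. The 2 differences were both at or above 0.25 for 19 genes and both at or below -0.25 for 58, while 41 genes passed this size in opposite directions. Both differences also fell with shorter coding sequences, with a Pearson r of 0.24 with log2 length in each run. With GC share r was -0.26 in run A and -0.20 in run B. The part of length and base composition in genes that passed in both runs was not tested. Both passed 0.5 for 3 genes, all lower in the ER line. RPL39, a small protein of the 60S subunit, differed by -0.61 and -0.59 on the log2 scale. TIMMDC1, an assembly factor of complex I, differed by -0.55 and -0.58, and TMEM106C, a membrane protein, by -0.52 and -0.61. RPL39 was not outside the range of all other libraries, since mito replicate 1 (9.03) and cytosol replicate 2 (8.66) were below both ER libraries (9.29 and 9.09 log2 CPM).

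In the mito line NIPA2, which encodes a magnesium transporter, had 5.09 and 5.12 log2 CPM. The ER line had 4.40 and 4.50 and the cytosol line 4.20 and 4.18, so the mito replicates agreed and did not overlap with the others. Its fitted change against the mean of the other lines was 0.79 ± 0.22 (log2, SE) with an unadjusted p of 0.00391 and an adjusted p of 1.00 by the edgeR test over all genes. HK2, the hexokinase that binds the outer mitochondrial membrane, was the glycolysis gene with the smallest p. It had 6.46 and 6.40 log2 CPM in the mito line, 5.71 and 6.12 in the ER line and 5.61 and 5.43 in the cytosol line. Within run B it was 6.40 in the mito and 6.12 in the ER library. The fitted difference from the cytosol line was 0.91 ± 0.26 (edgeR adjusted p = 0.824), and 0.84 without cytosol replicate 2. The glucose transporter SLC2A1 followed the same order, with 6.15 and 6.07 in the mito line, 5.69 and 5.81 in the ER line and 5.61 and 5.10 in the cytosol line. Of the 14 members of the glycolysis list, 2 (14.3%) were higher and 0 lower in both mito libraries, beside 4.15% and 5.33% of all genes, and the median of the list against the other lines was -0.05, beside -0.01 over all genes. On the lower side RNF141 had 3.88 in both mito libraries against 4.34 to 4.56 elsewhere, and NFIC, a CCAAT-binding factor, had 3.74 and 3.62 against 4.12 to 5.49.

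In the cytosol line the genes that held in both replicates differed more in replicate 2 than in replicate 1. Over the 484 genes that were higher, the median difference was 0.11 between cytosol replicate 1 and ER replicate 1 of the same run, and 0.30 between the cytosol replicates. For the 484 that were lower these medians were -0.10 and -0.28. EIF4A2, a paralogue of the initiation helicase eIF4A, had 6.98 and 7.30 log2 CPM in the cytosol line, 6.66 and 6.54 in the ER line and 6.47 and 6.23 in the mito line. Its fitted difference between the mito and cytosol lines was -0.79 ± 0.24 (edgeR adjusted p = 0.824), and -0.61 without cytosol replicate 2. ACYP1, an acylphosphatase, had 4.20 and 5.13 against 3.62 to 3.81, and COA3, an assembly factor of cytochrome c oxidase, had 6.95 and 7.18 against 6.25 to 6.59. Of the 27 members of the cholesterol and fatty acid synthesis list, 11 were lower and 0 higher in both cytosol libraries (beside 7.52% of all genes in each direction), and the median of the list was -0.43, beside 0.02 over all genes. Without cytosol replicate 2, 12 of the 27 were lower and 1 higher in cytosol replicate 1 than in all 4 ER and mito libraries. This stands beside 15.6% of all genes in each direction, and the median was -0.16. Such a share was not particular to the list. By the same measure 13 of 37 G1/S genes were lower and 1 higher, and 12 of 37 ATF4 list members lower and 3 higher. Of 14 glycolysis genes 5 were lower and 3 higher. Within run A the median of the cholesterol list between the cytosol and ER libraries was -0.02. For ER replicate 2 against ER replicate 1 it was 0.25.

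**Figure D2:**
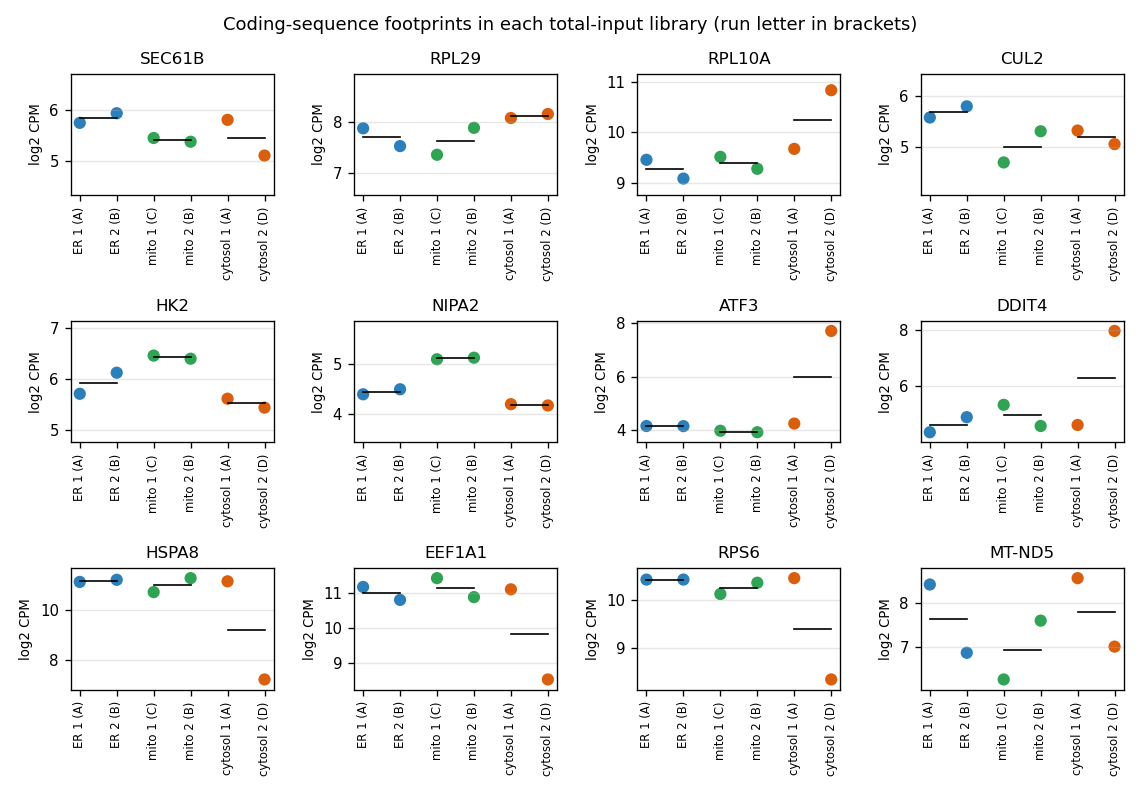
Log2 CPM (y axis) of 12 genes in the 6 total-input libraries, with the sequencing run in brackets (x axis), points coloured by line and a bar at the mean of each line's 2 libraries. NIPA2 and HK2 are higher in both mito libraries, CUL2 is higher in both ER libraries, and in ATF3, DDIT4, HSPA8, EEF1A1, RPS6 and RPL10A cytosol replicate 2 stands apart from the other 5.

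The genes of the anchors and the tag were examined in every contrast. SEC61B encodes the protein whose sequence anchors the ligase in the ER line, so footprints on the fusion could add to its count. It had 52.2 and 60.7 CPM in the ER line, 43.9 and 40.9 in the mito line and 54.9 and 36.4 in the cytosol line. The ER libraries overlapped with cytosol replicate 1, and the mito line differed from the ER line by -0.43 ± 0.29 (log2, SE; edgeR adjusted p = 1.00). RPL29 had 228 and 182 CPM in the ER line, 164 and 233 in the mito line and 265 and 303 in the cytosol line. Both cytosol libraries were higher than the 4 others, and the fitted difference between the mito and cytosol lines was -0.48 ± 0.26 (edgeR adjusted p = 0.824), and -0.42 without cytosol replicate 2. SYNJ2BP, the gene of OMP25, was part of an entry that names several genes and was not a member.

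Per length, in the deposited RPKM, RPL10A lay at 2322 to 3171 in 5 libraries and at 7815 in cytosol replicate 2. RPL29 lay at 571 to 989 and SEC61B at 289 to 514 over the 6. RPL10A, a protein of the 60S subunit, was the ribosomal protein gene with the smallest p among the lines, with 9.46 and 9.08 log2 CPM in the ER line, 9.51 and 9.28 in the mito line and 9.67 and 10.83 in the cytosol line. Its 5′ untranslated region had 13.8 to 28.9 CPM in all 6 libraries, with 24.0 in cytosol replicate 1 and 28.9 in cytosol replicate 2. The ratio of coding to 5′ untranslated counts was 33.4 in cytosol replicate 1 and 66.9 in replicate 2, and it was 21.2 to 53.4 in the ER and mito lines. This ratio was also higher in cytosol replicate 2 for RPL13, at 8.11 against 3.005 in replicate 1 and 2.79 to 4.09 in the ER and mito lines, and for RPL29 it was 18.4 and 11.8 in cytosol replicates 2 and 1, within the 6.86 to 20.97 of the ER and mito lines. RPL13 and RPS2, the other ribosomal protein genes at least 2-fold higher in cytosol replicate 2 than in replicate 1, were each 1.21 higher on the log2 scale, and RPL10A was 1.16 higher. Whether cytosol replicate 2 came from cells with a lentiviral Avi-RPL10A was not tested. Ribosomal protein genes share sequence with many processed pseudogenes, and the authors' masking of positions that are not unique leaves part of each coding sequence uncounted, so levels of single members are uncertain.

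The third comparison described how cytosol replicate 2 differed from cytosol replicate 1, its partner by label, with values of the other libraries beside it. There is 1 library on each side, so no test was made. Between these libraries 412 genes were at least 2-fold higher in replicate 2 (6.4%) and 279 at least 2-fold lower (4.33%). Between ER replicates the counts were 15 (0.233%) and 9 (0.14%), and between mito replicates 14 (0.218%) and 34 (0.528%), for replicate 2 against replicate 1. The pulldown libraries of the cytosol line gave a further reading: pulldown replicate 2 was in run D, as its total input was, and pulldown replicate 1 in run C, another run than its total input. Of the 691 genes past 2-fold in the total inputs, 687 had the same sign in the pulldowns, and 454 were past 2-fold there in the same direction. In the pulldowns as a whole 361 genes were at least 2-fold higher in replicate 2 (5.61%) and 388 lower (6.03%). Genes in the following paragraphs that are not among the list members with the smallest p were named after their values were seen. Across the 6436 genes the Pearson r of these differences was 0.87, a description over genes in libraries that share a label and, for replicate 2, a run.

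Members of the ATF4 list were higher in cytosol replicate 2. Of its 37 members all 37 were above their level in replicate 1, 24 by at least 2-fold (64.9% beside 6.4% of all genes) and 0 were lower by 2-fold, and the median difference was 1.26 beside -0.00 over all genes. In the pulldowns 21 of 37 were at least 2-fold higher and 1 lower, with a median of 1.24. ATF3, a stress-induced transcription factor, had 4.16 and 4.16 log2 CPM in the ER line, 3.99 and 3.93 in the mito line and 4.26 and 7.71 in the cytosol line. The cytosol pulldowns gave 4.45 and 7.98. DDIT4, an inhibitor of mTORC1, had 4.39, 4.92, 5.35, 4.61 and 4.64 in the first 5 libraries and 7.96 in cytosol replicate 2. CEBPB, a partner of ATF4, had 4.51 to 5.15 in 5 libraries and 7.15 in cytosol replicate 2. In both genes 5 libraries were close together and 1 was high, and the fitted change of ATF3 between the mito and cytosol lines, -2.88 ± 0.79, had an adjusted p of 0.824 by the edgeR test and was -0.29 without cytosol replicate 2.

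The members with the largest differences included amino acid transporters and enzymes. The cationic amino acid transporter SLC7A3 was 3.12 higher on the log2 scale in cytosol replicate 2 than in replicate 1, the cystine transporter SLC7A11 2.69 higher and the cystathionine lyase CTH 3.11 higher. TRIB3, a pseudokinase that limits ATF4, was 2.29 higher, SESN2, a leucine sensor upstream of mTORC1 that is also in the p53 list, 1.97 higher, and the serine synthesis enzymes PHGDH and PSAT1 1.68 and 1.19 higher. Aminoacyl-tRNA synthetases ranged from 0.16 (NARS1) to 1.31 (AARS1), and in the pulldowns from -1.19 (TARS1) to 1.24 (YARS1). Of the 12 members that hold the letters of the response element, 7 were at least 2-fold higher and 5 were not, with a median of 1.22, and of the 16 members whose window does not hold them 10 were, with a median of 1.35. The 5 shown above were picked from the 7: ATF3 at 3.46, SLC1A4 at 1.71, AARS1 at 1.31, GARS1 at 1.28 and CEBPG at 1.17. The lowest of the 12 were SLC1A5 at 0.51 and NARS1 at 0.16.

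ATF4 itself was not a member, because its coding sequence had 24.0 to 47.4 counts in 5 libraries and 157 in cytosol replicate 2. In CPM these were 3.0 to 5.46 and 35.0. Its 5′ untranslated region, which holds the regulatory upstream reading frames, carried far more footprints, with 328 to 488 CPM in 5 libraries and 725 in cytosol replicate 2. The pulldowns did not share this order, with 430 CPM in cytosol replicate 1 and 380 CPM in cytosol replicate 2. Coding counts per 5′ count were 0.006 to 0.014 in 5 libraries and 0.048 in cytosol replicate 2, and 0.004 and 0.076 in the pulldowns of cytosol replicates 1 and 2. DDIT3, which encodes CHOP, had 0.46 to 1.96 CPM in 5 libraries and 22.1 in cytosol replicate 2. PPP1R15A, the eIF2 phosphatase subunit GADD34, had 1.47 to 3.61 and 14.9 CPM. Neither reached the minimum count in all libraries. Of other genes known for regulatory upstream reading frames, ATF5 and PPP1R15B did not share this order. ATF5 had 5.43 to 12.5 CPM in 5 libraries and 4.33 in cytosol replicate 2, with 15.04 and 2.71 in the pulldowns. PPP1R15B, the constitutive phosphatase subunit, had 63.97 to 89.0 CPM in 5 libraries and 74.9 in cytosol replicate 2, and its coding counts per 5′ count were 1.24 to 2.19 and 0.804. SLC35A4, another such gene, was higher, with 1.73 to 2.59 CPM in 5 libraries and 5.85 in cytosol replicate 2. That value rests on 26.2 coding counts and 6.0 counts in the 5′ region, and the pulldowns gave 1.52 and 1.65 CPM.

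Cytosolic chaperones were lower in cytosol replicate 2. Of 21 members of the list, 11 were at least 2-fold lower than in replicate 1 (52.4% beside 4.33% of all genes) and 1 at least 2-fold higher, with a median of -1.02. HSPA8, the constitutive Hsp70, had the lowest difference of all genes. It had 11.11 and 11.19 log2 CPM in the ER line, 10.70 and 11.26 in the mito line and 11.13 in cytosol replicate 1, and 7.25 in cytosol replicate 2. The pulldowns gave 11.29 and 7.21. HSPH1, an exchange factor of Hsp70, differed by -2.52, its co-chaperone DNAJA1 by -2.25 and HSP90AB1 by -1.36. The exception was the small heat shock protein HSPB1, which had 5.83 in cytosol replicate 1 and 7.14 in replicate 2, against 5.53 to 6.16 in the ER and mito lines. UBB, which encodes polyubiquitin, was 0.28 higher, and in the pulldowns it differed by -0.03. HSPD1, the mitochondrial Hsp60, differed by -0.72 in the total inputs and by 1.06 in the pulldowns.

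Most members of the ribosomal protein list and of the translation factor list, which also holds other TOP mRNAs, were lower in the same library. Among 66 ribosomal protein genes 56 were below their level in cytosol replicate 1, and the median was -0.68. At least 2-fold lower were 17 (25.8% beside 4.33% of all genes), and 3 were at least 2-fold higher (4.55% beside 6.4%). In the pulldowns 30 were at least 2-fold lower (45.5% beside 6.03% of all genes) and the median was -0.86. RPS6, a target of S6 kinase in the 40S subunit, had 10.44 and 10.44 log2 CPM in the ER line, 10.13 and 10.37 in the mito line, and 10.47 and 8.34 in the cytosol line. RPSA and RPL6 differed by -1.92 and -1.90 on the log2 scale. Of 38 members of the translation factor list, 8 were at least 2-fold lower (21.1% beside 4.33% of all genes) and 0 higher, with a median of -0.59. EEF1A1, the elongation factor that delivers aminoacyl-tRNA, had 10.81 to 11.43 in 5 libraries and 8.53 in cytosol replicate 2. TPT1, another TOP mRNA, had 6.80 to 7.19 and 4.97, and EEF2, the translocase, differed by -1.19. EIF1, which sets start codon stringency, was higher instead, with 8.44 in cytosol replicate 1 and 9.06 in replicate 2. Of the genes shown above with TTTTC at their start, EEF1A1, RPS6, RPSA and TPT1 were lower in cytosol replicate 2 and RPL10A was higher.

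**Figure D3:**
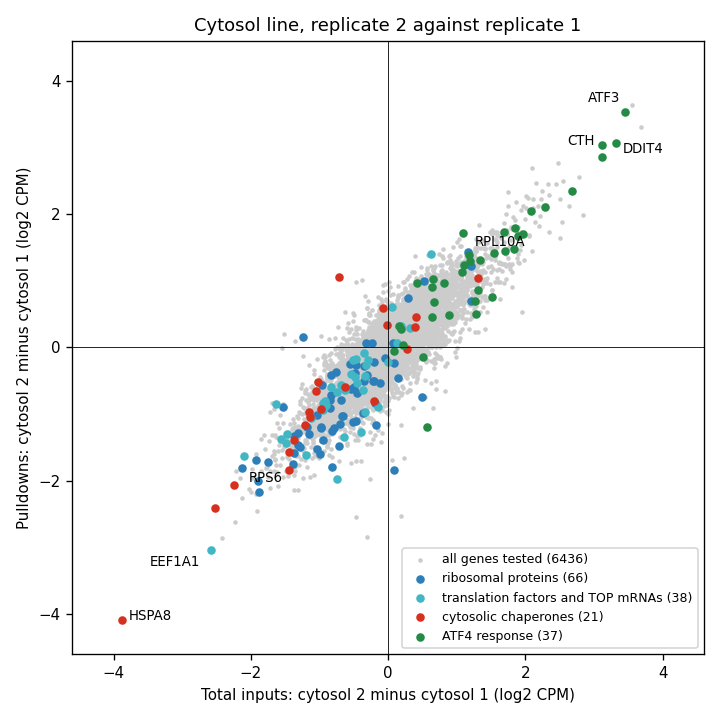
Difference in log2 CPM between cytosol replicate 2 and replicate 1 in the total inputs (x axis) and in the pulldowns (y axis), with grey points for all 6436 genes and coloured points for 4 gene lists. Most ATF4 list members lie at the upper right, and HSPA8, EEF1A1 and most ribosomal protein genes at the lower left, with RPL10A among the exceptions.

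Cholesterol and fatty acid synthesis genes were lower, with a median of -0.40. At least 2-fold lower were 10 of 27 (37.0% beside 4.33% of all genes), and 1 was at least 2-fold higher (3.70% beside 6.4%). HMGCS1, the synthase at the start of the pathway, differed by -1.73 and ACAT2 by -1.98. FASN, the fatty acid synthase, had 10.45 and 10.75 log2 CPM in the ER line, 11.34 and 10.72 in the mito line and 10.32 and 8.88 in the cytosol line. DHCR7, the last reductase of the pathway, had 7.99 and 8.29, 8.79 and 8.30, and 7.94 and 6.93. For both genes the cytosol libraries were below all 4 others, the gap of replicate 1 being the small one, and the fitted differences between the mito and cytosol lines were 1.29 ± 0.43 and 1.04 ± 0.34 (edgeR adjusted p = 0.824 for each), and 0.76 and 0.64 without cytosol replicate 2. SREBF1, which encodes a factor of the pathway, was 1.56 higher in cytosol replicate 2 than in replicate 1.

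The next counts stand beside 6.4% of all genes at least 2-fold higher and 4.33% lower, and some members are shared with the ATF4 list. Immediate early genes had 5 of 19 members (26.3%) at least 2-fold higher, 0 lower and a median of 0.84, and ATF3, one of the 5, is also in the ATF4 list. JUN had 8.46 to 9.08 in 5 libraries and 10.66 in cytosol replicate 2, and KLF10 5.35 to 5.63 and 7.74. Of 15 p53 targets 5 (33.3%) were at least 2-fold higher and 0 lower, with a median of 0.84, and GADD45A and SESN2 among them are also in the ATF4 list. CDKN1A, the inhibitor p21, had 3.97 to 4.45 and 6.42. Of 12 hypoxia targets 2 (16.7%) were at least 2-fold higher, DDIT4 and BHLHE40, of which DDIT4 is also in the ATF4 list. The list of the ER unfolded protein response had 5 of 31 members (16.1%) at least 2-fold higher, 0 lower and a median of 0.34. XBP1, its splicing-activated factor, had 7.43 to 7.78 and 9.06, HERPUD1, a factor of ER-associated degradation, had 4.41 to 4.81 and 6.57, and the sensor ERN1 had 3.60 to 3.88 and 5.57.

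Other genes among the 15 largest differences in each direction, named for their size, were TXNIP, an arrestin that binds thioredoxin (5.20 to 5.82 log2 CPM in 5 libraries and 9.20 in cytosol replicate 2), and SERPINF1, a secreted serpin (2.63 to 4.23 and 6.71). The neurofilament gene NEFM, a HEK293 marker, had 6.11 to 6.65 and 8.67, while the related INA had 7.36 to 7.80 and 5.38. NOL6, RBM19, DHX37, RRP9 and UTP20, which act in assembly of the small ribosomal subunit, differed by -2.23, -2.21, -2.16, -2.13 and -2.00 on the log2 scale. Beside these differences, the fibroblast marker sum was 209 CPM in cytosol replicate 2 against 54.7 to 71.0 CPM elsewhere, its depth was the lowest, its run was its own and its alignment was named in another way. The part of each in the differences was not tested, and run and library cannot be told apart for cytosol replicate 2.

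The same lists differed little between libraries of one run. Within run A the median difference between the cytosol and ER libraries was between -0.08 (G1/S genes) and 0.08 (immediate early genes) for the lists with at least 12 members, and was -0.00 for the ATF4 list and 0.03 for chaperones. Within run B the medians of these lists were between -0.08 (cholesterol synthesis) and 0.12 (replication-dependent histones), with -0.05 for the ATF4 list. Between the ER replicates, in runs A and B, the ribosomal protein median was -0.26 and that of histones -0.38, further from 0 than any median of these lists within a run.

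**Figure D4:**
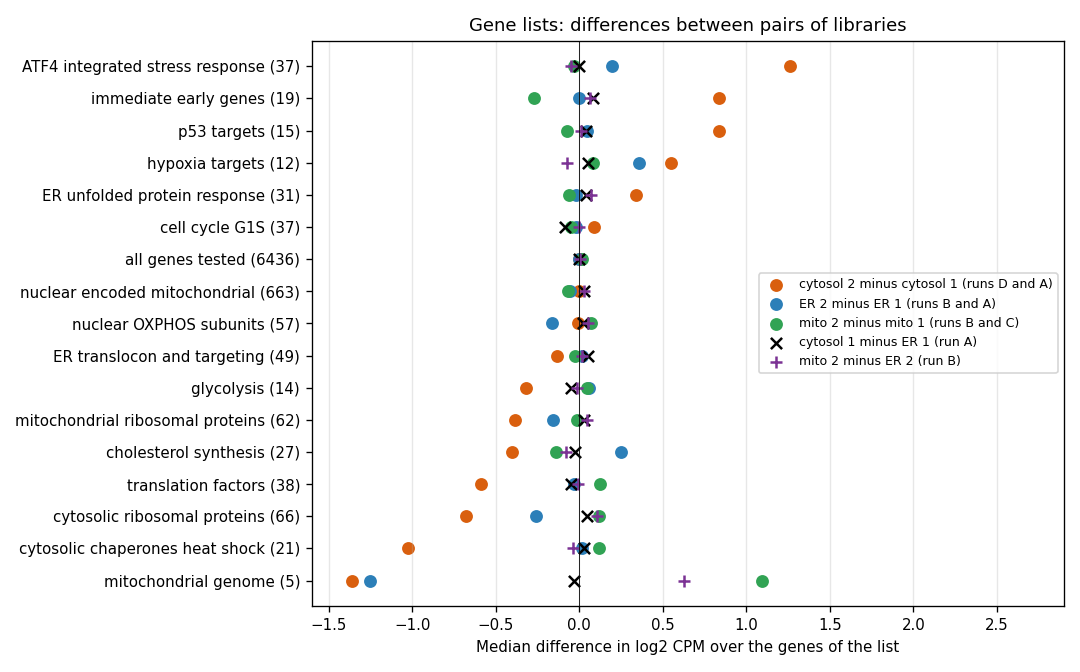
Median difference in log2 CPM over the members of each list (x axis, number of members in brackets on the y axis) for 3 pairs of replicates in different runs and 2 pairs of lines in the same run. The cytosol replicates are apart from the other pairs for the ATF4, chaperone, ribosomal protein and translation factor lists, and the within-run pairs lie within 0.11 of 0 for every list plotted but the mitochondrial genome.

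Genes of the mitochondrial genome are read by mitochondrial ribosomes, which hold neither tagged protein. They differed among libraries, with the highest shares in the libraries of run A and the library of run D between those of run B. The 13 genes together made up 0.135% of coding counts in ER replicate 1 and 0.144% in cytosol replicate 1 (run A), 0.0516% in ER replicate 2 and 0.0805% in mito replicate 2 (run B), 0.0350% in mito replicate 1 (run C) and 0.0588% in cytosol replicate 2 (run D). MT-CYB, cytochrome b, had 394 and 171 CPM in the ER line, 112 and 251 in the mito line and 443 and 204 in the cytosol line. MT-CO1, of cytochrome c oxidase, had the smallest p of the 5 members, with 54.8 and 33.3 CPM in the ER line, 15.6 and 32.8 in the mito line, and 41.4 and 21.2 in the cytosol line. Its fitted difference between the mito and ER lines was -0.89 ± 0.44 (log2, SE; edgeR adjusted p = 1.00).

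Nuclear genes for mitochondrial proteins, taken as a list from the study's supplementary tables, were near the median of all genes in each line. Of 711 genes in that list 663 were members, and 0 were called in any contrast. In the mito line 45 (6.79%) were higher and 26 (3.92%) lower in both libraries, beside 4.15% and 5.33% of all genes, and the median against the other lines was 0.01. In the cytosol line 64 (9.65%) were higher and 36 (5.43%) lower, beside 7.52% of all genes in each direction, with a median of 0.02. In the ER line 12 (1.81%) were higher and 31 (4.68%) lower, beside 3.92% and 3.74%, with a median of -0.04. For the subunits of oxidative phosphorylation 14 of 57 were higher and 0 lower in both cytosol libraries (beside 7.52% of all genes), with a median of 0.10. Without cytosol replicate 2, 27 of the 57 were higher and 3 lower in cytosol replicate 1 than in the 4 others, beside 15.6% of all genes in each direction. This was not particular to the list, since 38 of 66 ribosomal protein genes were higher and 0 lower, and 19 of 38 histone genes higher and 1 lower. Within run A the median of the 57 between the cytosol and ER libraries was 0.02. For the ER translocon and targeting list, 1 of 49 members (2.04%) was higher and 0 lower in both ER libraries, beside 3.92% and 3.74% of all genes, with a median of -0.04. SRP68 of the signal recognition particle had the smallest p there, with 4.16 to 4.74 in 5 libraries and 5.68 in cytosol replicate 2.

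Several pairs of libraries differed with the base composition of the coding sequence, and others did not. Across 6434 genes the difference between mito replicates 1 and 2 (runs C and B) had a Pearson r of 0.66 with the GC share of the coding sequence (Spearman 0.68), a description over genes that share their libraries. Over the other pairs of total inputs in different runs r lay between -0.68 (ER replicate 2 minus mito replicate 1) and 0.41 (mito replicate 1 minus cytosol replicate 1), and it was -0.0011 for mito replicate 1 minus cytosol replicate 2. Within runs it was -0.26 for ER minus cytosol in run A and -0.20 for ER minus mito in run B, the same size as the -0.20 of the cytosol replicates in runs A and D. The genes were split into 10 groups of about equal size. In the group with the lowest GC share (median 39.7%) mito replicate 2 exceeded replicate 1 by 0.35 in the median, and in the group with the highest (65.7%) the difference was -0.44. The ER replicates (runs B and A) differed by 0.17 and -0.24 in these groups. Within runs the same groups differed by -0.04 and 0.06 for cytosol against ER in run A, and by -0.03 and 0.10 for mito against ER in run B. The cytosol total inputs differed by -0.19 and 0.19, but their pulldowns by -0.01 and -0.01. The ER replicates also differed with the length of the coding sequence, with a Pearson r of -0.41 for replicate 1 minus replicate 2. The part of base composition in the differences between lines was not tested.

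**Figure D5:**
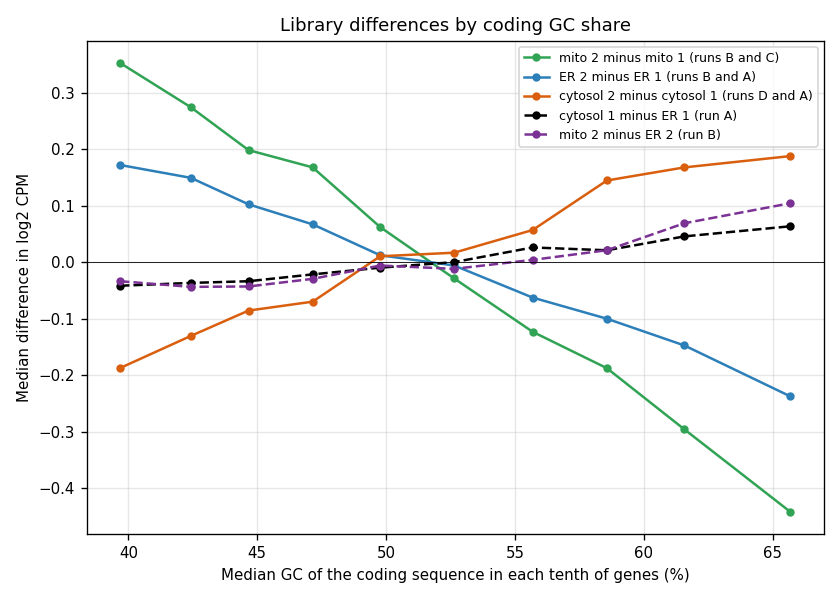
Median difference in log2 CPM (y axis) in 10 groups of genes by GC share of the coding sequence (x axis, percent) for the replicate pairs of each line (solid) and the within-run pairs (dashed). The mito replicates span 0.35 to -0.44 and the within-run pairs -0.04 to 0.10.

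Chromosome medians of the fitted cytosol contrast lay between -0.09 and 0.13 except for chromosome 17 at 0.22 (356 genes), chromosome 21 at -0.18 (73 genes) and the mitochondrial genome. Between the cytosol replicates chromosome 17 had a median of 0.34 and chromosome 21 of -0.38, and in the pulldowns these were 0.25 and -0.37. Within run A both were within 0.01 of 0 between the cytosol and ER lines. In the mito replicates chromosomes 19 and 22, which are rich in GC, had medians of -0.31 and -0.23 for replicate 2 against replicate 1, and chromosome 13 of 0.21.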

How the data were processed

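The 6 libraries are micrococcal nuclease footprints of total inputs. Per the study's methods and the file headers, the authors removed ribosomal and transfer RNA reads with Bowtie, aligned the rest to GRCh38 with TopHat, and assigned footprints with plastid, masking positions that are not unique. The deposited tables hold estimated counts per gene region, which need not be whole because reads are spread over several positions, and RPKM, which the authors computed with the reads on annotated transcripts as the denominator. The deposited columns of coding counts, exon counts and 5′ and 3′ untranslated counts were used. The 2 cytosol pulldown libraries were used only for comparison.

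Coding counts were rounded to whole numbers and tested with edgeR 4.0.16 (R 4.3.3, quasi-likelihood, TMM, line as the factor, 2-sided) over 6436 genes with at least 64 counts in all 6 libraries, the study's minimum, with Benjamini-Hochberg adjustment. DESeq2 1.42.0 was an alternative. CPM are coding counts scaled by the library total, and log2 CPM values use the TMM scaling and a prior count of 2. Entries without a gene symbol took 0.0181 to 0.0197% of the counts. GC shares and positions came from GENCODE's annotation of the same build, in a later release than the authors'. The test was checked on simulated counts for ER against cytosol with the spread of all 6 libraries. It recovered 0% of 200 genes changed by 0.5 on the log2 scale, 26% at 1 and 100% at 2. Among the genes left unchanged it called 0, 6 and 24 at these sizes. With the spread without cytosol replicate 2 it recovered 4%, 87% and 100%, and called 0, 5 and 5 unchanged genes. The 0 calls thus do not show that the lines were alike. Named genes were the anchor and tag genes, in each gene list the 3 members with the smallest p of the F test, and the largest called changes of each line, of which there were none. Others are said to be named for their values, and members of the lists described by size were also named after their values were seen. Members, lists and comparisons were chosen with earlier results of these data known. The methods state that molecular identifiers were extracted but not that copies were collapsed, so the counting error given may be too small. Results for some genes are not reported here.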

Additional observations from a re-analysis of the deposited data

Results flagged for a closer look

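Coding counts in entries that name several genes were outside the comparisons. They made up 5.86 to 6.37% of the coding counts of a library, above the limit that a count of 0 allows. The entry that holds SYNJ2BP with other genes had 118 CPM in the lowest and 159 CPM in the highest library. No group of these libraries was large enough for a test of single outlying libraries.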

How the results depend on the processing

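The count of 0 calls in each contrast was found again with library totals, DESeq2, edgeR's default filter, a mean of 64, a stricter minimum count, exon counts, without the mitochondrial genome, and in the fit of ER and mito libraries alone, which was chosen after seeing the data. Adding the replicate number as a block gave 0 calls in each contrast. Differences between replicates correlated at 0.33 for ER and mito, 0.19 for ER and cytosol and -0.10 for mito and cytosol. The ER line shared a run with mito in replicate 2 and with cytosol in replicate 1. These correlations therefore cannot show whether the numbers pair the libraries. With the cytosol pulldowns in place of the total inputs there were 5 genes higher in the ER line and 3 higher in the mito line against cytosol, 2 higher in the ER line and 5 lower in the cytosol line against the other lines, and 2 by the F test. Leaving out 1 library at a time gave 0 to 677 genes higher and 0 to 730 lower for ER against cytosol, 0 to 675 and 0 to 666 for mito against cytosol, 0 to 198 and 0 to 243 for ER against the others, 0 to 179 and 0 to 121 for mito, 0 to 848 and 0 to 770 for cytosol, and 0 to 1205 by the F test. The upper end was in each case the fit without cytosol replicate 1, and the fits without any other library gave 0. The cause was not tested.

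Of 251 values of 17 fitted changes of named genes, 232 kept their direction and side of the threshold. In the 10 that newly passed the threshold the fit was without cytosol replicate 1. Another 9 reversed. SEC61B was -0.0594 for ER against cytosol within run A. For mito against cytosol it was 0.11 with pulldowns and ranged from -0.38 to 0.34 with 1 library left out, 0.34 without cytosol replicate 1. RPL29 was 0.021 for ER against cytosol with pulldowns. For mito against ER it was 0.0207 with exon counts, 0.36 within run B, and ranged from -0.33 to 0.17 with 1 library left out, 0.13 without ER replicate 1 and 0.17 without mito replicate 1. DDIT4, ER against cytosol, ranged from -3.29 to 0.0254, the latter without cytosol replicate 2. Pair spreads at the stricter minimum stayed within 1.5 times. Medians of the cytosol replicate differences of 6 lists kept their sign with library totals and in the pulldowns, both chosen after seeing the data. Without cytosol replicate 2, also chosen then, the cytosol line was lower than the ER and mito libraries at 12 in place of 11 cholesterol synthesis genes and higher at 27 in place of 14 genes of oxidative phosphorylation, a comparison with 1 library in place of 2.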
